A study of Mus musculus with 6 samples.

Results

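The 32 genes of the Mediator complex were chosen by name: 11 of the head, 9 of the middle, Med14 as the scaffold, 5 of the tail and 6 of the kinase module. They held 273 of the 85015 introns that any of the 4 total RNA libraries lists. Mediator is the multi-subunit coactivator that carries signals from transcription factors bound at enhancers to RNA polymerase II at promoters. Its head and middle modules contact the polymerase, its tail receives activators, the Med14 subunit holds these modules together, and a kinase module of Med12, Med13 or its paralog Med13l, cyclin C and Cdk8 or Cdk19 binds the core reversibly. In embryonic stem cells Mediator occupies the enhancers of pluripotency genes together with cohesin. Son is a nuclear speckle protein that promotes the splicing of many introns, among them introns with weak splice sites.

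The study treated E14 mouse embryonic stem cells, a line of 129/Ola background grown in serum and leukemia inhibitory factor, with Son siRNA or control siRNA delivered by Lipofectamine 2000, and extracted RNA 24 h after transfection. Total RNA depleted of ribosomal RNA gave 2 control and 2 knockdown libraries, and Nanopore cDNA gave 1 library of each kind. The total RNA tables list reads that are split across an intron and reads that run unsplit over its junctions, and 31 of the 32 genes had listed introns (the introns of Med20 were not analysed here). Of the 273 Mediator introns, 250 were listed in all 4 libraries, and the 237 of these with at least 10 split and 10 unsplit reads were tested. In the long reads, 135 of the 195 annotated Mediator transcripts had a read and 50 had at least 20. The control libraries also received siRNA and lipid, so they differ from the knockdown in the siRNA. No label says that the replicates came from separate cultures, so p-values measure the spread between these libraries, which may be technical.

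Son itself checked the labels. Its spliced reads numbered 4376 and 3251 in the 2 controls but 1380 and 1061 after knockdown, a log2 fold change of -1.61 (edgeR quasi-likelihood test, Benjamini-Hochberg adjusted p = 3.72e-10), and 217 against 37 long reads. Of 12 embryonic stem cell markers, 11 had spliced reads. Their summed level, in reads scaled to the library total (CPM), was 7263 and 7211 CPM in the control libraries. It was 7265 and 7035 CPM in the knockdown libraries. Of the 11, 1 passed the test of spliced reads (background 6.76% lower and 1.96% higher). Of the lists for other cells, the highest was primitive endoderm (3 of 7 markers, Gata4, Lama1 and Sox7), at 572 and 570 against 626 and 626 CPM; trophoblast reached at most 35.3 CPM with 2 of 5 markers, neural and fibroblast lists at most 4.51 CPM, and none of the 4 mesoderm markers had spliced reads. No gene of these other lists passed the test of spliced reads, and their part in the results below was not tested. Split reads at 5′ junctions numbered 16012286 and 10640247 in the control and 14978479 and 10556187 in the knockdown libraries, and the median tested Mediator intron had 190 to 293 junction reads per library. In bulk RNA, fewer cells of a type and less RNA per cell cannot be told apart.

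In the knockdown, splicing of Med12 and Med24 fell, most strongly at a few introns of each gene. Splicing efficiency, the share of split reads among all reads at the 2 junctions of an intron, was tested as a log2 odds ratio, which is above 0 where the knockdown had more unsplit reads per split read. Of the 237 tested introns, 8 passed the test with a lower efficiency (3.38%, against 1.71% of all 63309 introns tested), 5 of Med12 and 3 of Med24. None passed with a higher efficiency by edgeR or by DESeq2 (background 0.0442%), while 2 were higher (background 1.61%) and 24 lower (background 8.11%) at an unadjusted p under 0.05. Outside these 2 genes edgeR and DESeq2 called none of 197 introns. The smallest edgeR adjusted p among these introns was 0.102, and 11 had an unadjusted p under 0.05. Both knockdown libraries were below both controls in 65 of the 237 introns (27.4%, background 24.3%) and above them in 26 (11.0%, background 13.1%). The median log2 odds ratio was 0.14 over the Mediator introns and 0.12 over all introns tested.

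The exon ends that meet at the called introns are shown to place those introns in the coding sequence. Each line joins the last 30 bases of the upstream exon to the first 30 of the downstream exon, 5′ to 3′, read by identifier from GENCODE M21 transcripts (Med12 from ENSMUST00000117706, Med24 from ENSMUST00000017354). Capitals mark the last 3 bases before and the first 2 bases after the intron.
Med12 intron 14: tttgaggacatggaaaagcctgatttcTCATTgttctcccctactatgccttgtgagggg
Med12 intron 16: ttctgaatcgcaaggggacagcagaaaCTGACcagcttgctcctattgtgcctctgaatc
Med12 intron 17: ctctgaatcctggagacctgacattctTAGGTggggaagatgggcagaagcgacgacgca
Med24 intron 14: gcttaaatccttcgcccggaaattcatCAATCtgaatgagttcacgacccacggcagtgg
Med24 intron 16: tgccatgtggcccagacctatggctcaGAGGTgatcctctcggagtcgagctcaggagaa
Med24 intron 25: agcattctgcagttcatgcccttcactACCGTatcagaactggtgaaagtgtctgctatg
The exon ended in AG before 4 of the 8 called introns and before 115 of the other 229 tested Mediator introns (50.2%). It began with G after 5 of the 8 and after 92 of the 229 (40.2%). GC content over these 60 bases had a median of 51.7% at the called and 48.3% at the other introns, and the called introns (46.7% to 58.3%) lay inside the range of the others (25.0% to 73.3%).

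Med12 (ENSMUSG00000079487), the subunit through which cyclin C and Cdk8 are activated, had the largest falls of any Mediator gene. Its called introns are numbers 13, 14, 15, 16 and 17 of 45, which follow each other within 1615 nt of chromosome X in the coding sequence. Intron 17 (GRCm39, chromosome X, 100325707 to 100326006, plus strand, 300 nt) had an efficiency of 0.901 and 0.810 in the 2 controls, against 0.281 and 0.262 after knockdown. Over both junctions, split reads were thus the minority at this intron in both knockdown libraries and the majority in both controls. The log2 odds ratio was 4.06 with a standard error of 0.62 (edgeR quasi-likelihood test, Benjamini-Hochberg adjusted p = 1.74e-06), from 84 to 151 junction reads per library. Its unsplit reads lay mostly at the 3′ junction, with 56 and 84 reads there in the knockdown and 14 and 13 in the control. At the 5′ junction they numbered 13 and 6 in the knockdown and 1 and 3 in the control. Split reads in the knockdown numbered 14 and 17 at the 3′ junction. They numbered 13 and 15 at the 5′ junction, where they were not the minority.

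Intron 16 (chromosome X, 100325489 to 100325655, 167 nt) stood at 0.912 and 0.829 in the control and 0.333 and 0.513 in the knockdown libraries, a log2 odds ratio of 3.30 (edgeR quasi-likelihood test, Benjamini-Hochberg adjusted p = 0.000438). A 51 nt exon separates it from intron 17. Intron 14 (chromosome X, 100324855 to 100324968, 114 nt) stood at 0.918 and 0.835 against 0.458 and 0.50, a log2 odds ratio of 3.04 (edgeR quasi-likelihood test, Benjamini-Hochberg adjusted p = 0.000763). The groups did not overlap at either intron (background 24.3% lower in both knockdown libraries), but both were called by a test of the same values. At the other 2 called introns, 13 (100324392 to 100324773, 382 nt) and 15 (100325140 to 100325343, 204 nt), the control libraries lay between 0.869 and 0.977 and the knockdown libraries between 0.518 and 0.824. DESeq2 called neither (adjusted p = 0.0583 and 0.212), and intron 15 held in 4 of 10 alternatives. Intron 17 was not called from its 5′ junction alone (edgeR adjusted p = 0.0699). Without control replicate 1, the deepest library, intron 17 alone of the 8 called Mediator introns passed the test, and the log2 odds ratios of introns 16 and 14 were 2.75 (adjusted p = 0.181) and 2.46 (adjusted p = 0.260) in the same edgeR fit.

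**Figure D1:**
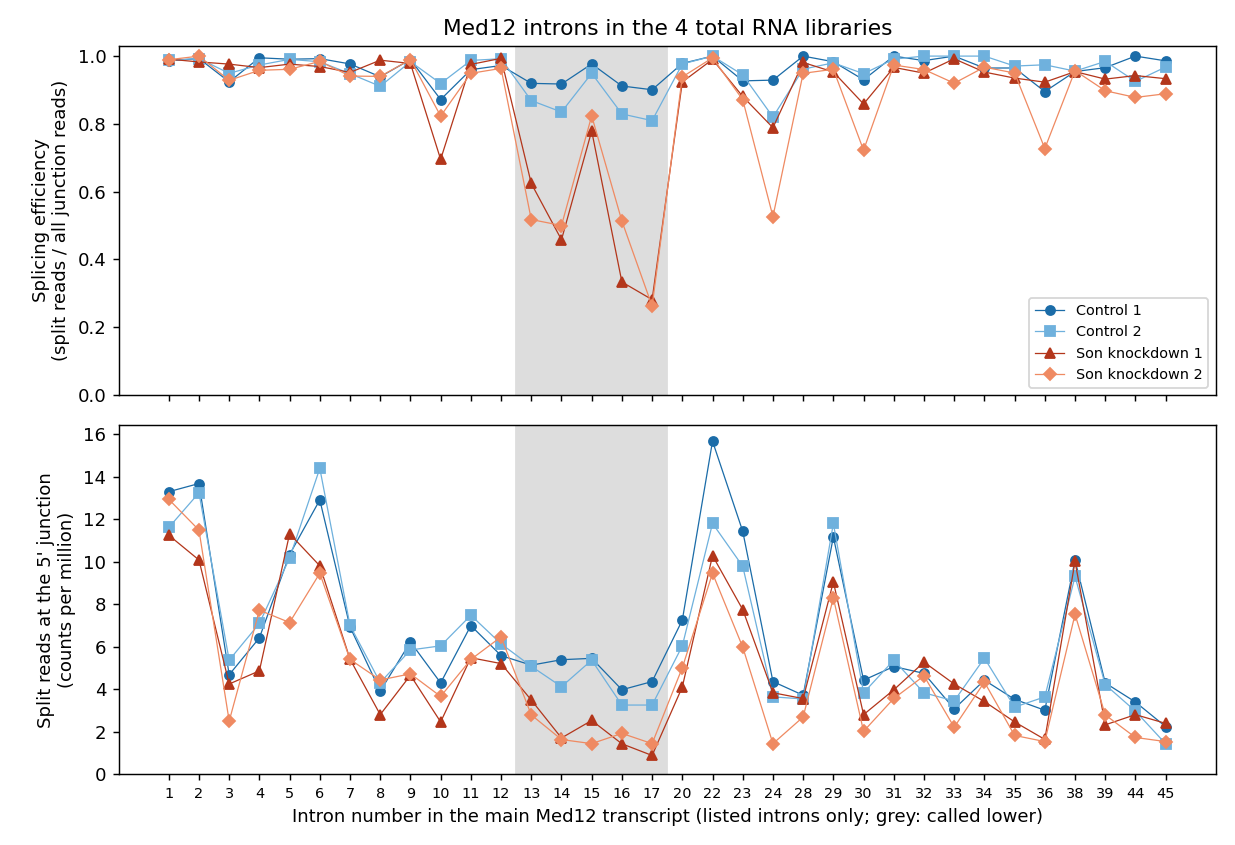
Splicing efficiency (top, share of split reads) and split reads at the 5′ junction (bottom, CPM) for each Med12 intron listed in all 4 total RNA libraries, with 1 point per library, joined within a library. In the grey introns 13 to 17 the knockdown libraries fall as low as 0.262 in efficiency while the controls stay at or above 0.810.

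Elsewhere in Med12 the change was smaller at most introns and mostly a fall. The other 24 tested introns changed by -0.217 to 0.0391 in mean efficiency with a median of -0.0234. Both knockdown libraries were below both controls in 12 of them (background 24.3%). None of the 24 passed the test by edgeR or DESeq2, and 6 were lower at an edgeR unadjusted p under 0.05 (background 8.11%). Summed over the 5 called introns, which were chosen by this same measure, efficiency was 0.926 and 0.864 in the control and 0.50 and 0.459 in the knockdown libraries. Over the gene's 27 other introns it was 0.971 and 0.972 against 0.951 and 0.942, so the groups did not overlap there either. Over the whole gene the log2 odds ratio was 1.56 (edgeR quasi-likelihood test, Benjamini-Hochberg adjusted p = 1.32e-08), and it passed in each of 11 alternatives.

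Spliced reads of Med12 fell as well. The gene had 215.9 and 208.7 CPM in the control and 162.5 and 154.0 CPM in the knockdown libraries, so that both knockdown libraries lay below both controls. The log2 fold change was -0.44 with a standard error of 0.08 (edgeR quasi-likelihood test, Benjamini-Hochberg adjusted p = 0.000781). Split reads at the 5 called introns went from 24.3 and 21.1 CPM to 10.1 and 9.26 CPM, a log2 ratio of -1.23, and those at the other 27 introns from 192 and 188 CPM to 152 and 145 CPM, a log2 ratio of -0.35. These ratios are a description, since the 5 introns were chosen by a measure that holds the same split reads. Unsplit reads at the 5 introns went the other way, from 3.85 and 6.62 to 18.4 and 19.9 CPM. The fall in spliced reads was not called from the best covered intron alone (log2 fold change -0.08, edgeR adjusted p = 0.909) or without control replicate 1 (-0.42, edgeR adjusted p = 0.0569).

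Med24 (ENSMUSG00000017210), a tail subunit that takes part in transcription driven by nuclear receptors, was lower in both measures. Intron 16 (GRCm39, chromosome 11, 98601280 to 98601598, minus strand, 319 nt) stood at 0.986 and 0.982 in the control and 0.859 and 0.887 in the knockdown libraries, a log2 odds ratio of 3.20 (edgeR quasi-likelihood test, Benjamini-Hochberg adjusted p = 0.000314). Intron 25 (chromosome 11, 98595843 to 98595944, 102 nt), the last of the transcript, stood at 0.948 and 0.934 against 0.807 and 0.810, a log2 odds ratio of 1.93 (edgeR quasi-likelihood test, Benjamini-Hochberg adjusted p = 0.00400). Intron 14 (chromosome 11, 98602127 to 98603358, 1232 nt) stood at 0.977 and 0.983 against 0.928 and 0.873, a log2 odds ratio of 2.30 (edgeR quasi-likelihood test, Benjamini-Hochberg adjusted p = 0.0368). The groups did not overlap at any of the 3 (background 24.3% lower in both knockdown libraries), but these were called by a test of the same values. The lowest knockdown value was 0.807, so most reads at these introns remained split. Intron 14 was called in 3 of 10 alternatives and not by DESeq2 (adjusted p = 0.203). Without control replicate 1 the edgeR adjusted p was 0.102 for intron 16, 0.291 for intron 25 and 0.318 for intron 14.

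The other 8 tested Med24 introns changed by -0.0222 to 0.00476 in mean efficiency (median -0.0166), and neither edgeR nor DESeq2 called any, with 1 lower at an unadjusted p under 0.05. Over the whole gene efficiency was 0.971 and 0.969 in the control and 0.938 and 0.926 in the knockdown libraries, a log2 odds ratio of 1.22 (edgeR quasi-likelihood test, Benjamini-Hochberg adjusted p = 0.000121; 0.0787 without control replicate 1). Spliced reads stood at 152.7 and 154.0 CPM against 100.9 and 90.0 CPM. The log2 fold change of -0.70, with a standard error of 0.09, was the lowest of the 31 Mediator genes measured (edgeR quasi-likelihood test, Benjamini-Hochberg adjusted p = 1.78e-05), and it passed in each of 10 alternatives. At the 3 called introns split reads went from 44.5 and 41.5 to 22.8 and 20.8 CPM, a log2 ratio of -0.98, and at the 11 others from 108 and 112 to 78.1 and 69.2 CPM, a log2 ratio of -0.58. Spliced reads of Med24 were thus lower at introns whose efficiency was not called lower as well. Both ratios are a description, since the 3 introns were chosen by a measure that holds the same split reads.

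**Figure D2:**
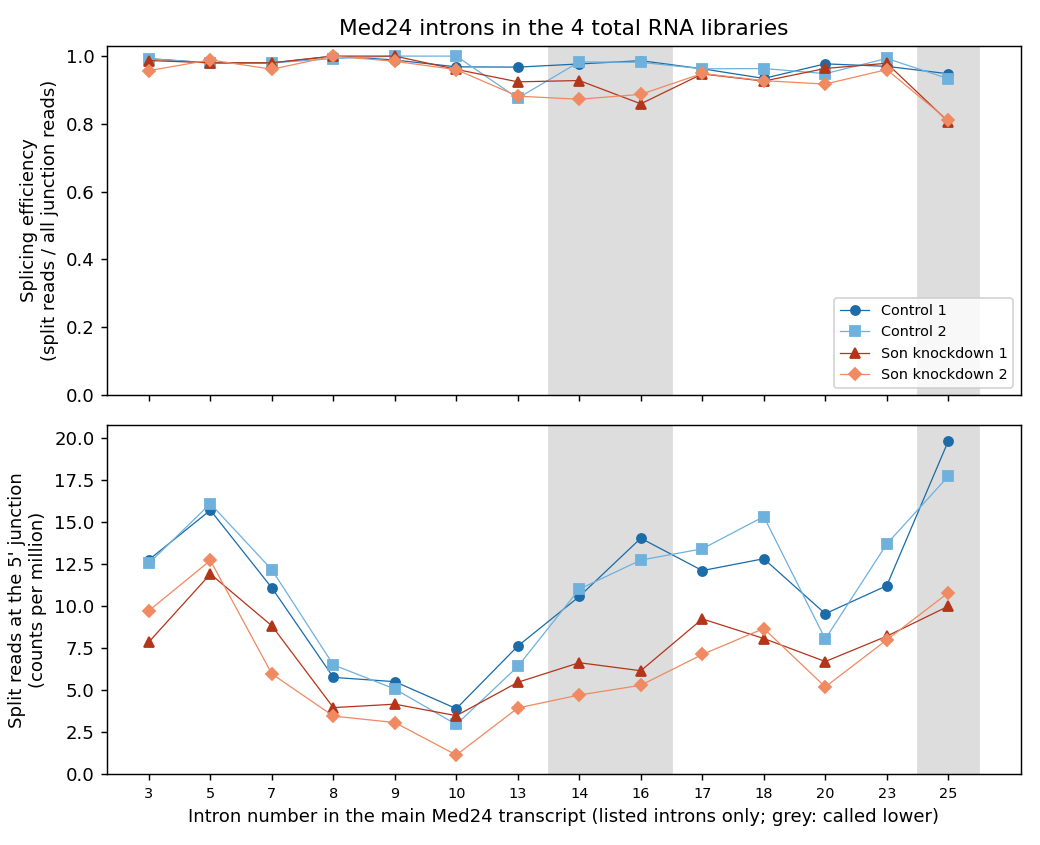
Splicing efficiency (top, share of split reads) and split reads at the 5′ junction (bottom, CPM) for each Med24 intron listed in all 4 total RNA libraries, with 1 point per library, joined within a library. Efficiency separates the groups most at the grey introns 14, 16 and 25, with 0.807 as the lowest knockdown value, while split reads are lower in the knockdown over most of the gene.

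Among the other tail genes, Med25 (ENSMUSG00000002968), the subunit bound by activators such as those of the Ets family, changed in splicing efficiency over the gene. It stood at 0.981 and 0.975 in the control and 0.966 and 0.959 in the knockdown libraries, a log2 odds ratio of 0.78 with a standard error of 0.24 (edgeR quasi-likelihood test, Benjamini-Hochberg adjusted p = 0.0211). The groups did not overlap, but the difference is 0.0152 in efficiency, and no Med25 intron was called by edgeR or DESeq2. Its 8 tested introns each had a lower mean in the knockdown, with changes of -0.0398 to -0.00388. Of these, 4 had an edgeR unadjusted p under 0.05 (background 8.11% lower), and introns of 1 gene are not replicates. The call held in 6 of 11 alternatives and was lost without control replicate 1 (edgeR adjusted p = 0.765), control replicate 2 (0.0842) or knockdown replicate 2 (0.267). Spliced reads of Med25 were 299 and 302 CPM against 255 and 264 CPM, a log2 fold change of -0.23 that missed the threshold (edgeR quasi-likelihood test, Benjamini-Hochberg adjusted p = 0.0570) and passed it in 3 of 10 alternatives. Its adjusted p was 0.0105 and 0.000451 without knockdown replicate 1 or 2, 0.481 and 0.550 without control replicate 1 or 2, and 0.0313 from 3′ junctions in the same edgeR test.

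The other 3 tail genes did not pass the tests with all 4 libraries. Med15, a target of activators such as the sterol response factors, had a gene efficiency of 0.958 and 0.962 in the control and 0.942 and 0.925 in the knockdown libraries, a log2 odds ratio of 0.76 (edgeR quasi-likelihood, Benjamini-Hochberg adjusted p = 0.0704). It passed in 2 of 11 alternatives, with a replicate block (log2 odds ratio 0.75, edgeR adjusted p = 0.00250) and without knockdown replicate 1 (0.95, adjusted p = 0.0358). Its introns 12 (69 nt) and 13 (1022 nt), named after their values were seen, stood at 0.770 and 0.772 against 0.587 and 0.576 and at 0.818 and 0.667 against 0.587 and 0.419, and neither was called (adjusted p = 0.580 and 0.582). Med23, which binds phosphorylated Elk1, had 172 and 177 CPM of spliced reads in the control and 185 and 190.5 CPM in the knockdown libraries. Med16, the tail gene with the fewest, had 64.3 and 64.5 against 68.4 and 71.5 CPM. The log2 fold changes of these 3 genes were 0.02, 0.08 and 0.10.

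The 5 other kinase module genes showed no called change. Med13l had 389 and 394 CPM of spliced reads in the control and 375 and 373 CPM in the knockdown libraries, the most of the module. Cdk19, the alternative kinase, had the fewest, with 20.7 and 17.7 against 17.1 and 16.5 CPM. Ccnc, which encodes cyclin C, had 78.8 and 79.9 against 70.4 and 68.0 CPM, a log2 fold change of -0.22 (edgeR quasi-likelihood, Benjamini-Hochberg adjusted p = 0.223). For these 3 genes the knockdown libraries lay below the controls (background 22%) by a margin that did not pass the test. Cdk8 (log2 fold change 0.04) and Med13 (-0.10), which links the kinase to the core, had overlapping groups. Their gene splicing efficiencies had adjusted p-values of 0.855 or more in the edgeR fit.

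The scaffold gene Med14 had 212 and 212 CPM of spliced reads in the control and 222 and 272 CPM in the knockdown libraries, a log2 fold change of 0.20 (edgeR quasi-likelihood test, Benjamini-Hochberg adjusted p = 0.224). It was the only Mediator gene higher at an unadjusted p under 0.05. Its gene efficiency was 0.958 and 0.954 against 0.956 and 0.958, and the groups overlapped.

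In the middle module Med10 (chromosome 13) was the only Mediator gene called with a higher splicing efficiency, and this rested on 1 intron. Intron 2 (GRCm39, 69959810 to 69961822, plus strand, 2013 nt) stood at 0.936 and 0.959 in the control and 0.988 and 0.978 in the knockdown libraries, so both knockdown libraries were above both controls. The log2 odds ratio of the gene was -1.80 with a standard error of 0.59 (edgeR quasi-likelihood test, Benjamini-Hochberg adjusted p = 0.0339), and the same intron missed the threshold among all introns (adjusted p = 0.134). The call held in 5 of 10 alternatives and was lost without control replicate 1 (edgeR adjusted p = 0.709), control replicate 2 (0.0647) or knockdown replicate 1 (0.333), and in DESeq2 (0.123). Spliced reads of Med10 were 13.2 and 12.4 against 14.5 and 13.8 CPM (log2 fold change 0.12). The exon ends at this intron join as follows, with capitals as above.
Med10 intron 2: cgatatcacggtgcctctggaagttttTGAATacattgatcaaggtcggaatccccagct

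The 8 other middle genes had no call. Med1, the subunit that binds nuclear receptors, had the most spliced reads, 269.7 and 265 CPM in the control and 272 and 317 CPM in the knockdown libraries, and Med7 the fewest, 3.34 and 4.60 against 3.50 and 2.70 CPM. Log2 fold changes of the module ran from -0.34 to 0.29, with 0.483 as the smallest edgeR adjusted p. Of its 29 tested introns none was called by edgeR or DESeq2, and 1 was higher at an unadjusted p under 0.05.

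The head module showed no called change in any measure of the total RNA. Its 27 tested introns and its genes included none with an edgeR unadjusted p under 0.05, and DESeq2 called none. Gene efficiency summed over the module was 0.947 and 0.936 in the control and 0.946 and 0.942 in the knockdown libraries. Med17, at the centre of the head, had the most spliced reads, with 115 and 104 CPM against 120 and 129 CPM, and Med8 the fewest, with 1.73 and 2.01 against 1.30 and 2.12 CPM. Log2 fold changes of the 10 measured head genes ran from -0.33 to 0.33, with 0.349 as the smallest edgeR adjusted p.

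Counted over genes, 3 of 31 Mediator genes had a lower splicing efficiency (Med12, Med24 and Med25, background 6.98%) and 1 a higher one (Med10, background 0.128%), which was also the only gene higher at an unadjusted p under 0.05 (background 1.13%). With split and unsplit reads scaled apart, the Mediator counts were again 3 and 1, while those over all genes went from 654 lower and 12 higher to 643 and 99. The median log2 odds ratio was 0.03 over the Mediator genes and 0.09 over all genes tested. Spliced reads fell in 2 of 31 genes (background 6.76%) and rose in 0 by edgeR and 0 by DESeq2 (background 1.96%). They were lower in both knockdown libraries in 7 genes (background 22%) and higher in both in 12 (background 27.5%), with a median log2 fold change of 0.08 against 0.01 over all genes. Per listed intron, which sets the genes on 1 scale, Med21 was the highest in each library, with 46.0 and 46.8 CPM in the control and 42.6 and 55.9 CPM in the knockdown, and Med25 followed with 37.4 and 37.7 against 31.9 and 33.0 CPM. Split reads enter both the efficiency and the spliced reads, so the 2 measures of a gene are not independent.

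**Figure D3:**
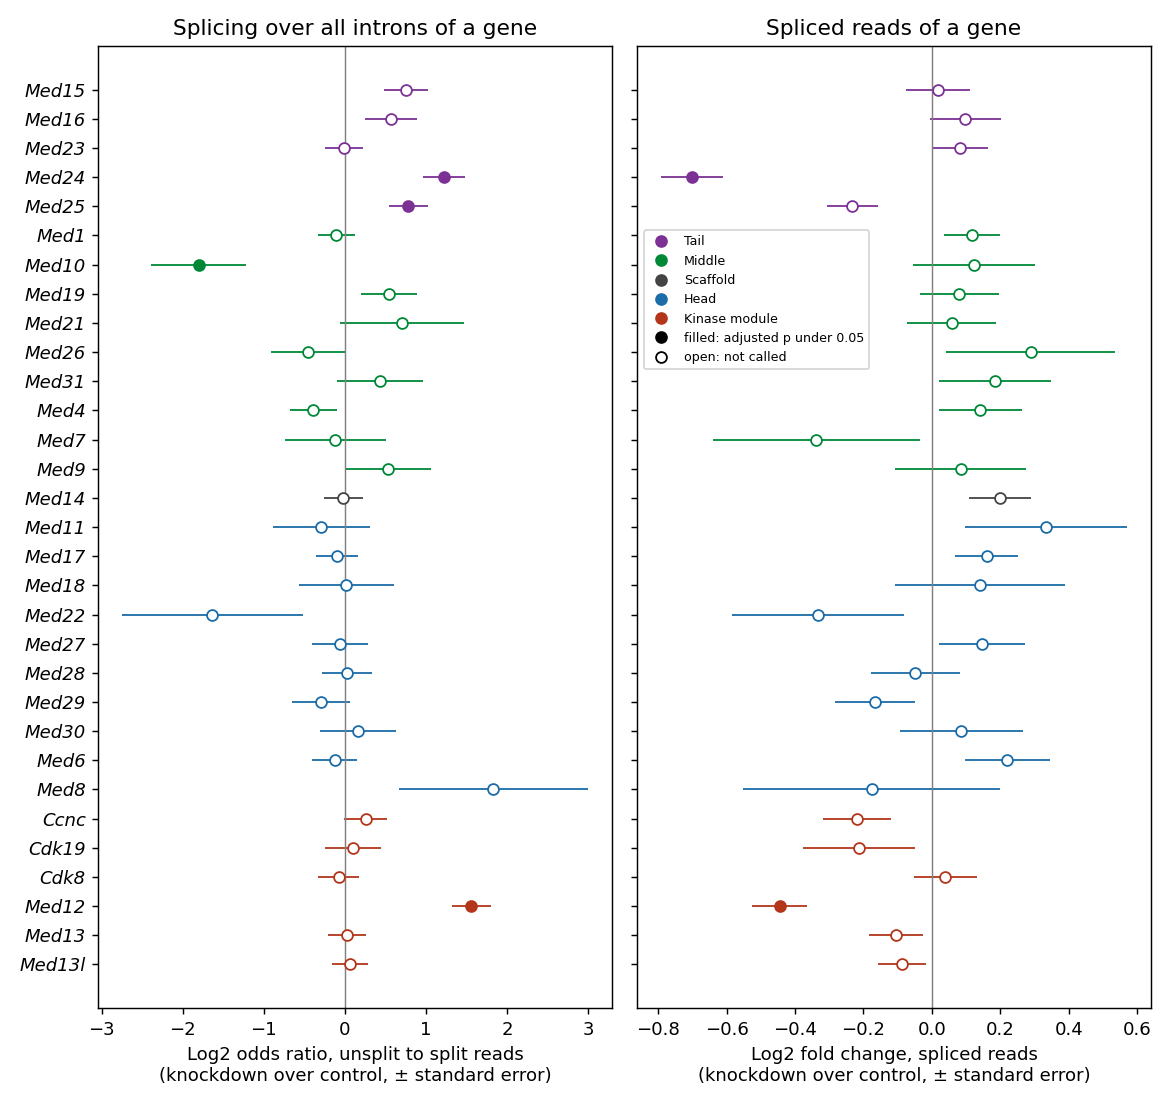
Log2 odds ratio of unsplit to split reads over all introns of a gene (left) and log2 fold change of spliced reads (right), knockdown over control, for 31 Mediator genes coloured by module, with bars of ± 1 standard error and filled points for an adjusted p under 0.05. Med12 (1.56 and -0.44) and Med24 (1.22 and -0.70) are the genes filled in both panels.

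Short introns changed more than long ones in the whole table, and the called Mediator introns were short. They had a median length of 252 nt (102 to 1232), against 1022 nt for the other tested Mediator introns and 1128 nt for all tested introns. Up to 200 nt, 3 of 41 Mediator introns were called lower, against 7.42% of all tested introns of that size, and the median change in efficiency was -0.0148 against -0.0174. From there to 1000 nt it was 4 of 79 against 1.44%, with medians of -0.0044 and -0.0048. Above 1000 nt it was 1 of 117 against 0.221%, with medians of -0.0018 and -0.0015. Without Med12 and Med24, none of 24, 60 and 113 Mediator introns in these classes was called by edgeR or DESeq2, with medians of -0.0075, -0.0026 and -0.0012. These are descriptions, since introns of 1 gene are not replicates.

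**Figure D4:**
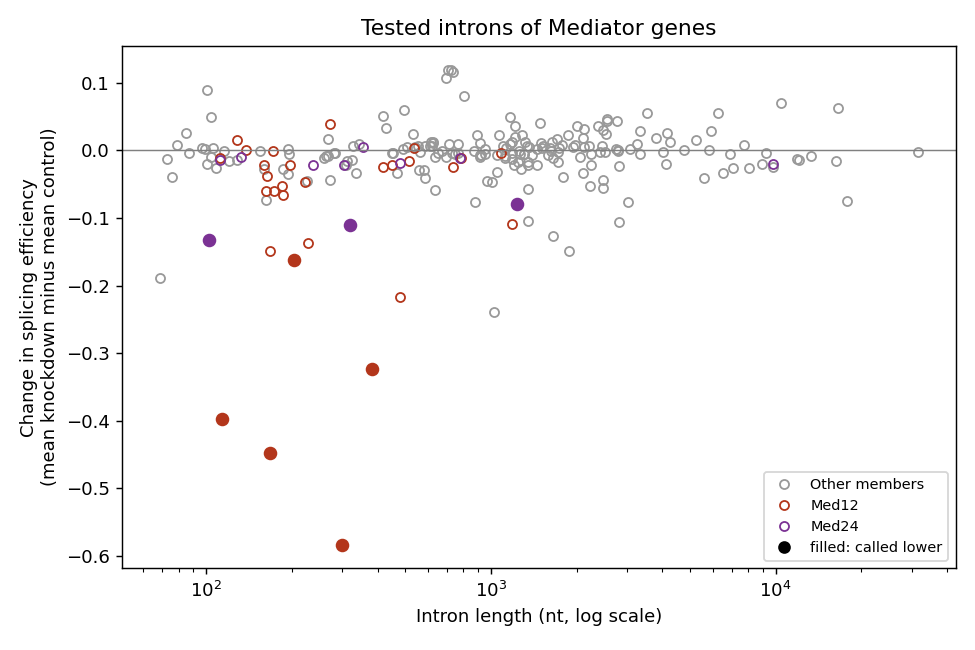
Change in mean splicing efficiency (knockdown minus control) against intron length on a log axis for the 237 tested Mediator introns, with Med12 in red, Med24 in purple and filled points for the 8 called lower. The 8 lie between 102 and 1232 nt, and the largest fall is the 300 nt intron 17 of Med12.

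The long reads, 3080426 in the control and 1874851 in the knockdown library, allow no test with 1 library of each kind, and their intervals cover counting error only. Intervals are 95% Wilson intervals. At least 2-fold lower were 8 of the 50 Mediator transcripts with 20 reads or more (background 5.8%), and 2 were at least 2-fold higher (background 3.32%). Summed by gene, 4 of 31 were 2-fold lower (background 4.16%), Med13, Med30, Med24 and Med26, and none was 2-fold higher (background 2.2%). The median log2 ratio was -0.02 over the Mediator genes and -0.01 over all genes.

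Med24 was the gene at least 2-fold lower in the long reads that was also called lower in spliced reads. It had 80 reads, 26.0 CPM (20.9 to 32.3), in the control and 19 reads, 10.1 CPM (6.49 to 15.8), in the knockdown library, a log2 ratio of -1.33, and its main transcript ENSMUST00000017354 went from 61 to 14 reads. Med12 had 78 reads, 25.3 CPM (20.3 to 31.6), against 26 reads, 13.9 CPM (9.46 to 20.3), a log2 ratio of -0.85, within 2-fold. Its transcript ENSMUST00000117706, whose introns are numbered above, went from 30 to 4 reads, a log2 ratio of -2.04. Other protein-coding models of similar length changed less: ENSMUST00000087948 from 16 to 6 (-0.63), ENSMUST00000117203 from 13 to 6 (-0.34) and ENSMUST00000087956 from 7 to 4 reads (-0.02). The last 2 had under 20 reads in all, and a difference between these models was not tested. The Med24 intervals did not overlap and the Med12 intervals touched, which says nothing of the spread between cultures. Med25 went from 86 to 36 reads (log2 ratio -0.53).

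The 3 other genes were lower in the long reads but not in the spliced reads. Med30, a head subunit found in metazoans, had 119 against 23 long reads, a log2 ratio of -1.63, while its spliced reads were 13.2 and 12.5 CPM in the control and 13.9 and 13.8 CPM in the knockdown total RNA. Med13 had 49 against 8 long reads (log2 ratio -1.83), beside a log2 fold change of -0.10 in spliced reads. Med26, which connects Mediator to elongation factors, had 41 against 11 long reads (log2 ratio -1.14), beside 0.29 in spliced reads. The values of the 2 assays thus differ most for these genes, and that difference was not tested. Med20, without introns in the tables, had 67 and 51 long reads (log2 ratio 0.33).

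The lower transcripts of Med30, Med13 and Med26 are their main ones. Of the remaining transcripts past 2-fold, that of Med13l (ENSMUST00000100816) went from 43 to 12 reads (log2 ratio of CPM -1.08). That of Med23 (ENSMUST00000020159) went from 52 to 14 (-1.14) and that of Med1 (ENSMUST00000018304) from 22 to 6 reads (-1.08). Over all transcripts of Med13l, Med23 and Med1 the log2 ratios were -0.63, -0.20 and -0.02. A Cdk8 transcript (ENSMUST00000031640) went from 17 to 26 and a Med22 transcript (ENSMUST00000015920) from 11 to 17 reads, which as CPM is 5.52 against 13.9 and 3.57 against 9.07. The intervals of the Med13l, Med1, Med26 and Med22 transcripts overlapped between the libraries. Over all Cdk8 transcripts the log2 ratio was 0.99, and Cdk19 had only 5 long reads in all. Of 11 Mediator transcripts over 4000 nt, 5 were 2-fold lower with a median log2 ratio of -0.63, against 6.23% and -0.07 over all transcripts of that length. The medians of the shorter Mediator transcripts followed no steady order: 0.10 up to 1000 nt, 0.28 from there to 2000 nt and -0.10 from there to 4000 nt, against 0.05, 0.04 and 0.00 over all transcripts. The other 3 lower transcripts, of Med30 (1007 nt), Med26 (2997 nt) and Med24 (3410 nt), were shorter than 4000 nt, and the part of transcript length in the result was not tested. Transcripts annotated as retained introns took 230 of 3844 Mediator long reads in the control (5.98%, 5.28 to 6.78) and 155 of 2363 in the knockdown library (6.56%, 5.63 to 7.63), and the intervals overlap. None of the 273 Mediator introns lies whole inside another annotated transcript of its gene, so these classes do not report on the introns above.

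**Figure D5:**
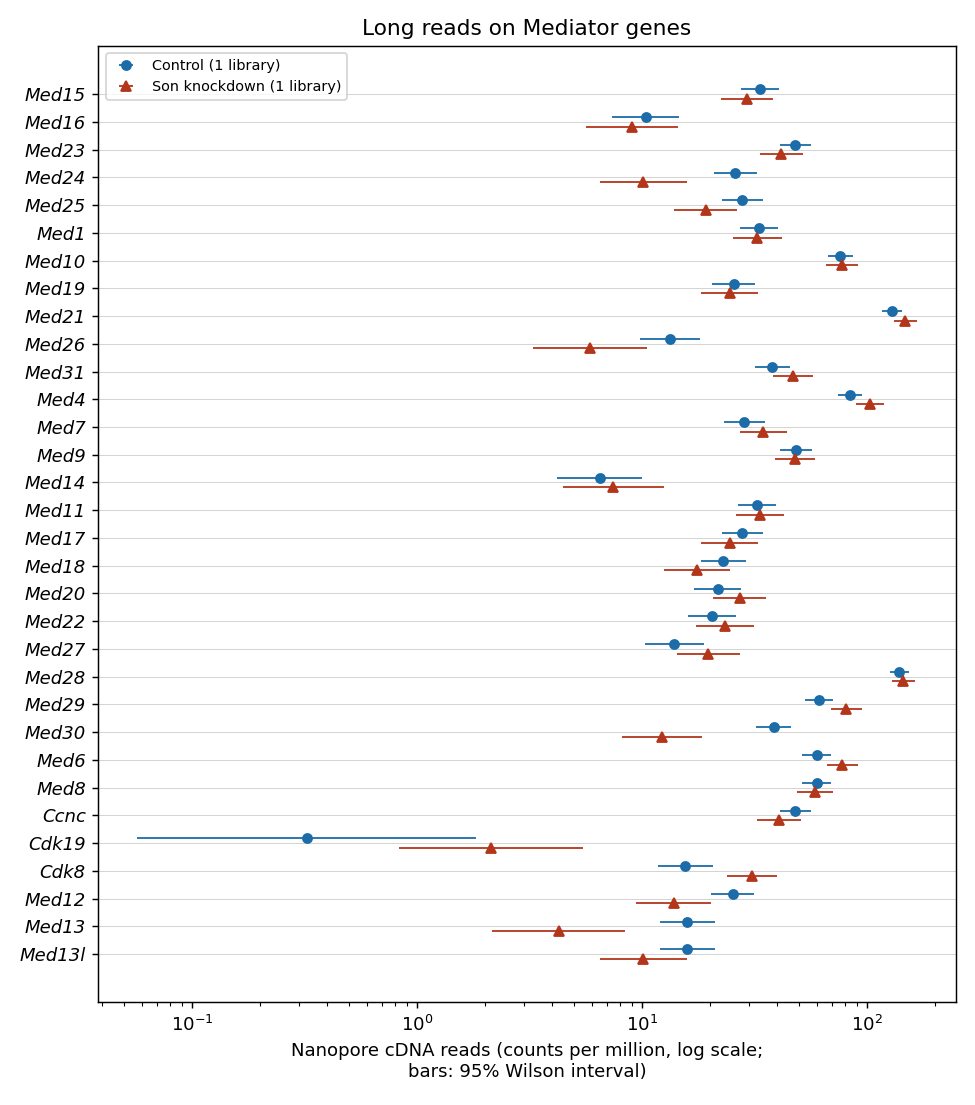
Nanopore cDNA reads of each Mediator gene in CPM on a log axis, for 1 control (blue) and 1 knockdown (red) library, with 95% Wilson intervals for counting error. Med30, Med13, Med26 and Med24 are the genes at least 2-fold lower, with log2 ratios of -1.63, -1.83, -1.14 and -1.33.

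The factors that Mediator works with were read from the same fits. In the preinitiation complex, 2 of 31 tested genes had a lower splicing efficiency and none a higher one by edgeR or DESeq2. Over all genes tested edgeR called 6.98% lower and 0.128% higher. At an edgeR unadjusted p under 0.05 there were 4 of the 31 (background 12.7% lower and 1.13% higher). Both counts are thus near the background. The 2 genes called lower encode parts of TFIIH, a factor of this complex. Ercc2, its subunit XPD, stood at 0.929 and 0.919 in the control and 0.846 and 0.827 in the knockdown libraries. The log2 odds ratio was 1.25 (edgeR quasi-likelihood test, Benjamini-Hochberg adjusted p = 8.04e-05). Gtf2h4 stood at 0.967 and 0.961 against 0.913 and 0.921, a log2 odds ratio of 1.31 (edgeR quasi-likelihood test, Benjamini-Hochberg adjusted p = 0.000746). Of 28 genes with spliced reads, 1 fell and 1 rose (background 6.76% and 1.96%): Ercc2 fell, from 85.2 and 85.0 to 55.1 and 55.3 CPM (log2 fold change -0.65, edgeR quasi-likelihood test, Benjamini-Hochberg adjusted p = 0.000174), and Gtf2h3 rose (0.30, adjusted p = 0.0400), a call lost in DESeq2. In cohesin and its loader, 0 of 7 genes changed in efficiency by edgeR or DESeq2 (background 6.98% called lower). At an edgeR unadjusted p under 0.05 it was 1 of 7 (background 12.7% lower and 1.13% higher). In spliced reads 1 of 7 fell (background 6.76%): Smc1a, a core ATPase of the ring, went from 246 and 257 to 205 and 197 CPM (log2 fold change -0.34, edgeR quasi-likelihood test, Benjamini-Hochberg adjusted p = 0.00559).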

How the data were processed

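Per the labels, the authors ran SPLICE-q on total RNA from 2 control and 2 knockdown samples and deposited counts of split and unsplit reads per intron junction, with a score that is a fraction from 0 to 1, the splicing efficiency. They also deposited long-read counts per transcript. The submitters' processing notes name GRCm39, minimap2 and SAMtools without a role; annotation, settings and strandedness are not given in the sources used here, so reads of overlapping antisense genes may be mixed. The descriptions of both long-read samples name the same starting RNA, of the knockdown, so the origin of the long-read control is unclear.

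Every test was fitted on the whole table. The edgeR 4.0.16 quasi-likelihood model (R 4.3.3) took a split and an unsplit column per library, both junctions summed, with a term per library, for unsplit reads and for unsplit reads in the knockdown (the term tested). Introns needed 10 split and 10 unsplit reads over the libraries. A read spanning an intron counts at both junctions, so single junctions were also tested. Introns listed under more than 1 gene were left out of gene sums. Spliced reads were 5′ junction split reads per gene, with TMM and the default expression filter. Benjamini-Hochberg adjusted p-values had a threshold of 0.05. Printed CPM values use the library total. Long reads used a pseudocount of 0.5 and 20 reads over both libraries, with Wilson intervals from scipy 1.17.1. DESeq2 1.42.0, other filters, scalings and left-out libraries were alternatives. The models were tested on simulated data. The 4 libraries held 10556187 to 16012286 split reads at 5′ junctions.

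Members, modules and the lists of markers and partner genes were chosen with earlier results of these data known. Described in full were members called in a gene fit and up to 3 called introns per gene, by size of change; of the others, those with the most and fewest spliced reads per module. Other members and introns named, such as Med15 and its introns, were picked after their values were seen. Intron positions come from the deposited tables. Of 84627 introns compared with GENCODE M21, 99.8% had the same length there and 2.45% the same position, so sequences were read by transcript identifier and no intron sequence was used here.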

Additional observations from a re-analysis of the deposited data

How the results depend on the processing

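Of 170 comparisons of a single intron or gene with an alternative, 128 kept the call, 37 lost it, 5 gained it and none reversed. The 8 introns called lower became 3 with 5′ junctions alone, 4 with 3′ junctions alone, 5 in DESeq2 and 1 to 10 with a library left out (1 without control replicate 1). Calls over all tested introns became fewer too. The share called lower was 1.71% in the main fit, 0.462% from 5′ junctions alone, 0.608% from 3′ junctions alone and 0.461% in DESeq2. That share also changed in the fits with a library left out. The loss of calls was thus not particular to the Mediator introns. The 3 genes with lower efficiency stayed 3 in DESeq2 (background 5.36%) and became 2 from 5′ junctions alone (5.62%) and 2 from 3′ junctions alone (5.31%). This count changed with a library left out as well. The 1 gene with higher efficiency became 0 with 5′ junctions alone (background 0.171%), with 3′ junctions alone (0.0558%) and in DESeq2 (0.0427%). It did not hold in every fit with a library left out. Genes lower in spliced reads became 1 from the best covered intron (background 2.67%, against 6.76% in the main fit). Those higher stayed at 0 (background 0.391%). Both counts changed in some fits with a library left out, and so did the counts over all genes. The 1 preinitiation gene higher in spliced reads became 0 in DESeq2 (background 1.46%). Long-read transcripts 2-fold lower became 4 with a pseudocount of 5 (background 1.67%), and those higher 0 with a minimum of 50 reads (background 1.12%). With a replicate block, 9 introns (background 2.50%) and 4 genes (10.3%) had lower efficiency, 1 gene (0.566%) higher, and 2 genes (7.87%) fewer spliced reads. Across introns and genes, the deviations of same-numbered libraries showed little correlation (0.0085 for intron log2 odds and 0.018 for gene log2 spliced reads). Mean efficiency over all tested introns was nonetheless lower in replicate 2 of both groups. It was 0.902 and 0.891 in the control and 0.891 and 0.873 in the knockdown. No label says that a replicate number marks a shared culture or day, so it was not taken as pairing. A scaling of their own for unsplit reads took the whole-table median log2 odds ratio from 0.12 to -0.03 for introns and from 0.09 to -0.05 for genes. Depth limits the introns with few unsplit reads.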

Other observations

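The 23 Mediator introns listed in fewer than 4 libraries entered no test. Among them, Med24 intron 11 (282 nt) had an efficiency of 0.935 and 0.946 in the control libraries and 0.829 in knockdown replicate 1, and Med24 intron 12 (773 nt) had 0.963 and 0.917 against 0.792; neither was listed in knockdown replicate 2. These introns were picked after their values were seen.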
